A study of Mus musculus with 120 samples.

Results

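The 10 genes of the first blood and vessels were followed through early mouse gastrulation: the embryonic globins Hbb-bh1, Hbb-y and Hba-x, the transcription factors Tal1, Lmo2, Runx1, Klf1 and Etv2, the receptor Kdr and the junction protein Cdh5. They were taken by name, 10 of the 23154 genes counted in 18 RNA libraries of dissected embryos. The embryos were of the ICR strain at E6.5, E7.0 and E7.5, where E gives the embryonic day, with no genotype or treatment named. Each stage has a piece labelled ExE, set against Epi at E6.5, A and P at E7.0, and A, AM and P at E7.5, with 2 libraries in each of the 9 groups. The labels spell out none of these codes and do not say whether a library is 1 embryo or a pool, and a p-value here reflects only how far such libraries lie apart.

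The first blood cells of the mouse form in the blood islands of the yolk sac, from extra-embryonic mesoderm that has left the primitive streak. Progenitors there carry Kdr, the VEGF receptor 2, and pass through a phase driven by the ETS factor Etv2 and then by Tal1 with its partner Lmo2, after which they become primitive red cells or endothelium. Primitive red cells make embryonic globins under Gata1 and Klf1, while endothelium builds junctions with Cdh5 (VE-cadherin), and Runx1 is the factor later needed for definitive blood.

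At E7.5 Tal1, Lmo2, Runx1 and Cdh5 were called higher in ExE than in the mean of the other pieces. Against P alone, only Runx1 among them was called. The Cdh5 call came from 19 and 15 counts in ExE and was lost by DESeq2 and under total counts. Hbb-bh1 and Klf1 had their highest levels in E7.5 ExE. Kdr and Etv2, the earliest genes of the lineage, were also high outside ExE and did not pass. In ExE, Etv2 had 23.4 and 25.0 CPM at E7.0 and 21.2 and 25.5 CPM at E7.5. Runx1 had 10.3 and 8.60 CPM in ExE at E6.5, a stage at which Tal1 and Hbb-bh1 had 0 counts there.

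The starts of 5 members hold letters that red cell factors read, and the 4 with a GATA core are shown. Promoters (250 bases before to 50 after the start) came from RefSeq on GRCm38.p6, which held 9 of them for 7 of the 10 genes, with none for Hbb-bh1, Lmo2 or Cdh5. Capitals mark GATA cores (AGATAA, where the first letter may also be T and the last may also be G) and CACCC boxes (CCACCC, or the longer form CACACCC) on either strand, the letters that Gata1 and Klf1 are known to bind. Each runs 5′ to 3′ along the gene's strand.
Klf1 (chr8:84901732-84902031, + strand): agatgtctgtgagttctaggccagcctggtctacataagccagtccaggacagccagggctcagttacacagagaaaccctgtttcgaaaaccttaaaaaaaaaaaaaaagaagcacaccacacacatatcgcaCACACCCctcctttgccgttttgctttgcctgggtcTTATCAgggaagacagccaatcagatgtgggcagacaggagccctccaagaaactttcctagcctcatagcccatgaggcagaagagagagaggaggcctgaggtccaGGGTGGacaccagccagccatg
Hba-x (chr11:32276350-32276649, + strand): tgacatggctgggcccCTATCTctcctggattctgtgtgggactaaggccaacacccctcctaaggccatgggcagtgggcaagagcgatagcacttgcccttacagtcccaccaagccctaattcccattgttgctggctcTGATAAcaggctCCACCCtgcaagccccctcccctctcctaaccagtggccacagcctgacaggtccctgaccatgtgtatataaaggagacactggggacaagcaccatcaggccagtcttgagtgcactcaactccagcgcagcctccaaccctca
Hbb-y (chr7:103853158-103853457, - strand): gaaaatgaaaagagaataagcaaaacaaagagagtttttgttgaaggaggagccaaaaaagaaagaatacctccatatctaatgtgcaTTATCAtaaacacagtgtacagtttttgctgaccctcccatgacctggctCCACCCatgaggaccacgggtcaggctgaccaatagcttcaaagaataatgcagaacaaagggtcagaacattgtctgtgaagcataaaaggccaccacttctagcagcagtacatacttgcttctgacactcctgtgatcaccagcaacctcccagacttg
Tal1 (chr4:115056176-115056475, + strand): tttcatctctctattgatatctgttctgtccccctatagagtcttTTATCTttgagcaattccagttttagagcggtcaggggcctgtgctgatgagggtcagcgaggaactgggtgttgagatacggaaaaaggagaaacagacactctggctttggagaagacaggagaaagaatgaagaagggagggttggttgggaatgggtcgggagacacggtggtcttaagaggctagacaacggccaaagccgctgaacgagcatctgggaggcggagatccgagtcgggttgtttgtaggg
A GATA core lay in 4 of the 9 promoters, against 29.8% of all 32851 promoters given. In Klf1 it lay 80 bases before the start, between a CACCC box 116 bases before and another 28 bases after. Hba-x, the alpha-type globin zeta, held GATA cores 234 and 108 bases before its start and a CACCC box 96 bases before it. It was also the 1 member promoter with a TATA box (TATAAA), 28 bases before the start. Hbb-y, the beta-type globin epsilon-y, held a GATA core 162 bases before and a CACCC box 112 bases before its start. Tal1 held a GATA core 205 bases before the first of its starts and no CACCC box. CACCC boxes lay in 4 of 9 promoters, the fourth being that of Kdr at 66 bases before the start, against 36.5% of all promoters. ETS cores (CGGAAG or AGGAAG) lay in 2 of 9, those of Runx1 at 124 and Etv2 at 207 bases before the start, against 46.5%, and E-boxes (CANNTG), the letters read by Tal1, in 5 of 9, against 72.3%. With 9 promoters these shares do not set the members apart from all promoters, and the matches describe the letters only.

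The libraries held 5.15 to 17.1 M counts each (median 11.1), and levels are CPM, the reads of a gene scaled to a common library size, after TMM scaling. Of the 10 genes, 8 passed the filter on low counts, while Hbb-y with 21 counts and Hba-x with 17 counts over the 18 libraries did not and are described only. Hbb-bh1 and Klf1 passed through the E7.5 ExE libraries alone, so their difference there was built into passing and their calls in E7.5 ExE are no support. Across bulk libraries, more cells of a type and more RNA per cell cannot be told apart.

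**Figure D1:**
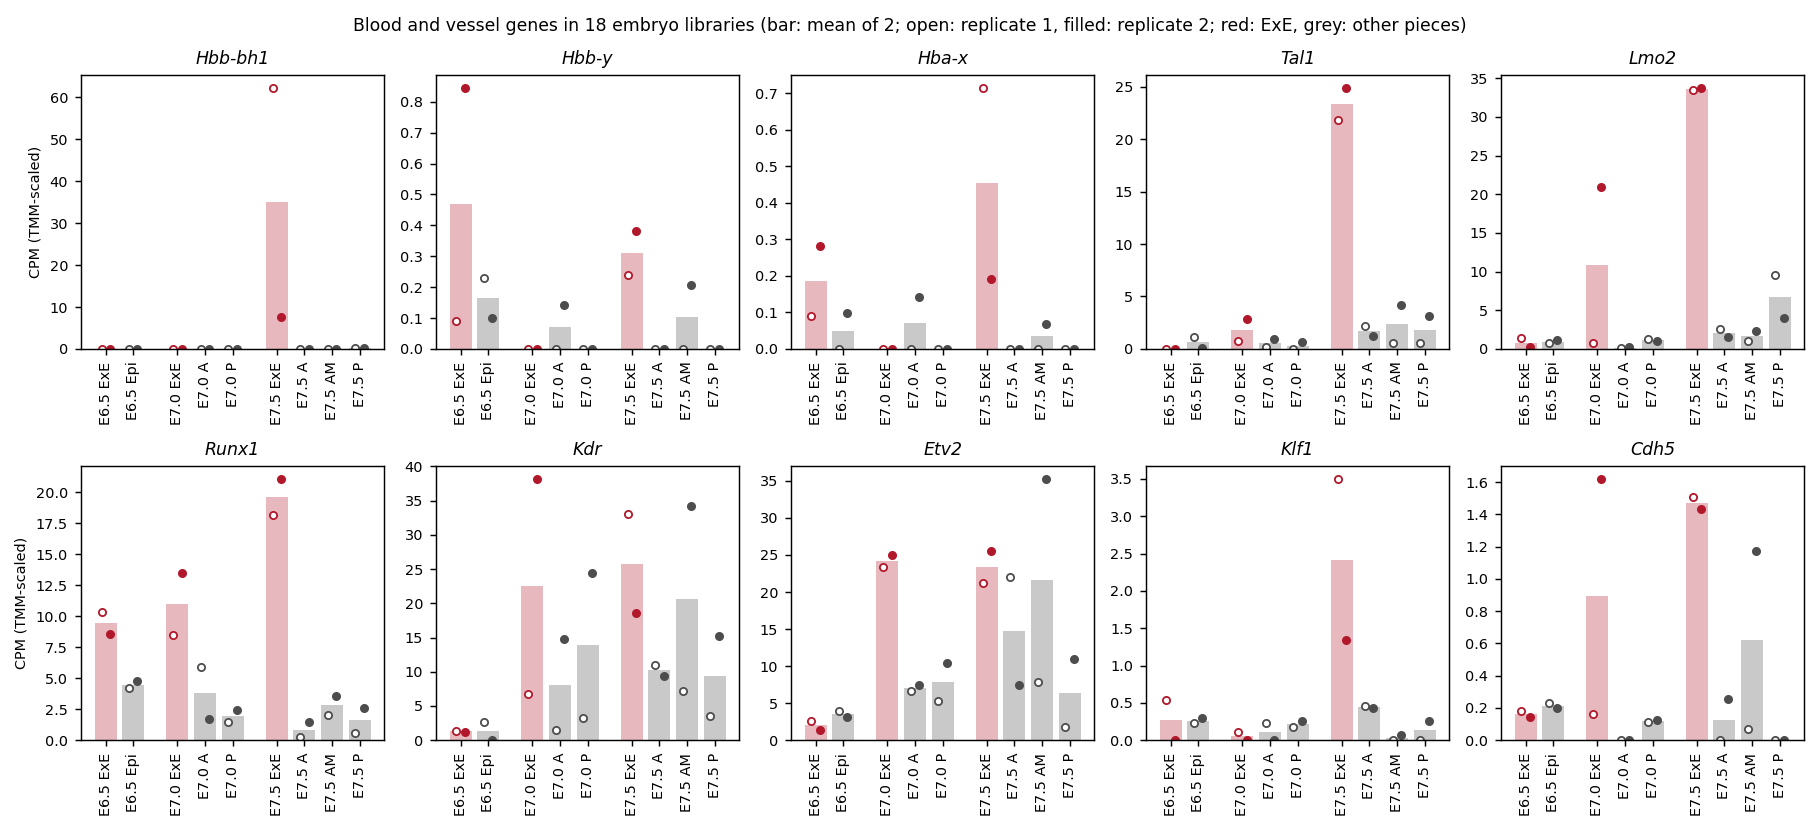
Level of each gene in CPM (y axis, linear, with its own scale in each panel) by group (x axis, stages in order), with bars for the mean of 2 libraries, open points for replicate 1 and filled points for replicate 2; ExE is red and the other pieces are grey. Hbb-bh1, Tal1 and Klf1 stand out in E7.5 ExE, Runx1 is above the other pieces in ExE at every stage, and Kdr and Etv2 are spread over several pieces.

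Hbb-bh1, the beta-type globin that leads in the first primitive red cells, was all but confined in these libraries to E7.5 ExE. It had 784 and 80 counts there, which are 62.3 and 7.64 CPM, against 3 and 1 counts in E7.5 P, 0 in the 4 libraries of E7.5 A and AM, and 0 in the 10 libraries of E6.5 and E7.0. The E7.5 ExE libraries therefore differed several-fold from each other while both lay far above all others. Over pooled counts, E7.5 ExE exceeded A, AM and P together 747-fold (95% interval 291 to 2750, counting error only). It was at least 298-fold higher than E7.0 ExE and at least 228-fold higher than E6.5 ExE, taking 3 counts per group as the floor. Its calls in E7.5 ExE, made only because these libraries carried it past the filter, are left as description. The call against P was in any case lost by DESeq2 (adjusted p = 0.459) and in edgeR without E7.5 ExE replicate 1, P replicate 1 or P replicate 2 (adjusted p between 0.0855 and 0.150).

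The other embryonic globins were close to undetectable. Hba-x had 9 and 2 counts in E7.5 ExE, against 1 count in all 6 libraries of A, AM and P. Its pooled ratio was 38.1 (95% interval 5.53 to 1640). Hbb-y had 3 and 4 counts in E7.5 ExE, against 3 counts in the 6 other E7.5 libraries, a ratio of 8.07 (1.84 to 48.4). The E6.5 ExE libraries also held 7 counts of Hbb-y, and the ratio of E7.5 to E6.5 ExE was 0.790 (0.236 to 2.64). Of the 9 adult and minor globins listed, Hba-a1, Hba-a2, Hbb-b1, Hbb-b2, Hbb-bs, Hbb-bt and Hbb-bh2 had 0 counts in every library. The theta globins Hbq1a and Hbq1b had at most 7 counts in a library and were not tested. Many of these are near-identical copies whose reads the counting may have dropped, so their absence is uncertain.

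Tal1, the basic helix-loop-helix factor that blood formation depends on, had 21.9 and 24.9 CPM in E7.5 ExE, against 2.18 and 1.20 CPM in A, 0.549 and 4.2 CPM in AM, and 0.518 and 3.15 CPM in P. Both ExE libraries lay above all 6 others. The log2 fold change over the mean of those pieces was 3.59 ± 0.83 (SE, 2 libraries a group, adjusted p = 0.00743 by edgeR's quasi-likelihood test with Benjamini-Hochberg adjustment). In ExE over the stages it had 0 counts at E6.5, 0.765 and 2.88 CPM at E7.0, and the values above at E7.5. That made E7.5 ExE at least 141-fold higher than E6.5 ExE (edgeR adjusted p = 0.0287), and 18.5-fold higher than E7.0 ExE over pooled counts (12.8 to 27.7), a step that did not pass the test (log2 3.78 ± 1.27, adjusted p = 0.339). At E6.5 the few reads lay in Epi, with 1.14 and 0.0991 CPM. The E7.5 call was lost without E7.5 ExE replicate 2 (log2 3.47, adjusted p = 0.0861).

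Lmo2, the LIM-domain protein that bridges Tal1 and Gata factors, had 33.5 and 33.8 CPM in E7.5 ExE, against 2.63 and 1.54 CPM in A, 0.961 and 2.27 CPM in AM, and 9.59 and 3.94 CPM in P. ExE again lay above every other library, and P came next. The log2 fold change over the mean of A, AM and P was 3.55 ± 0.67 (SE, edgeR adjusted p = 0.00183), while over P alone it was 2.30 ± 0.94 (adjusted p = 0.140). At E7.0 ExE had 0.820 and 20.9 CPM, against 0.0761 and 0.284 CPM in A and 1.27 and 1.02 CPM in P. The high value came from replicate 2, and the lower replicate lay within the range of the other pieces. The E7.0 difference passed (log2 4.58 ± 0.91, edgeR adjusted p = 0.00309), but without that library it was 0.90 (adjusted p = 0.558). In E6.5 ExE Lmo2 had 1.35 and 0.282 CPM, and E7.5 exceeded E6.5 in ExE by a log2 of 5.26 ± 1.12 (adjusted p = 0.0351).

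Runx1, the runt-domain factor later needed to make definitive blood stem cells, had a different course. ExE had 10.3 and 8.60 CPM at E6.5, 8.47 and 13.5 CPM at E7.0, and 18.2 and 21.1 CPM at E7.5. The other pieces had 4.22 and 4.76 CPM in E6.5 Epi, between 1.44 and 5.94 CPM at E7.0, and between 0.253 and 3.58 CPM at E7.5. ExE libraries were thus the highest at each stage. The log2 difference was 1.08 ± 0.72 at E6.5 (edgeR adjusted p = 0.398), 2.0 ± 0.60 at E7.0 (adjusted p = 0.0291) and 3.68 ± 0.53 at E7.5 (adjusted p = 0.000186). Against P alone at E7.5 it was 3.65 ± 0.80 (adjusted p = 0.0115), a call lost without E7.5 ExE replicate 2 (adjusted p = 0.0837) or P replicate 1 (adjusted p = 0.142). The growth of this difference from E7.0 to E7.5 did not pass (log2 1.68 ± 0.86, adjusted p = 0.499), nor did the step within ExE from E7.0 to E7.5 (log2 0.85 ± 0.70, adjusted p = 0.723). The E7.0 call was lost when any 1 of E7.0 ExE replicate 2, A replicate 2, P replicate 1 or P replicate 2 was left out, with adjusted p between 0.0507 and 0.175.

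Klf1, the erythroid Krüppel-like factor that acts on globin promoters, was low throughout. It had 3.50 and 1.34 CPM in E7.5 ExE, from 44 and 14 counts, against 0.456 and 0.427 CPM in A, 0 and 0.0689 CPM in AM, and 0 and 0.262 CPM in P. Both ExE libraries lay above the others, and the pooled ratio was 11.8 (95% interval 6.78 to 21.6, counting error only). As for Hbb-bh1, the call in E7.5 ExE is left as description, and it was lost without E7.5 ExE replicate 1 (edgeR adjusted p = 0.160), the library with the higher Hbb-bh1. Its E6.5 and E7.0 libraries held between 0 and 0.540 CPM, the highest being an E6.5 ExE library.

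Kdr, the VEGF receptor 2 that marks the progenitors of blood and vessels, was high at E7.5 both in ExE and in other pieces. It had 33.0 and 18.6 CPM in E7.5 ExE, against 11.0 and 9.40 CPM in A, 7.14 and 34.2 CPM in AM, and 3.54 and 15.2 CPM in P. The highest E7.5 value was AM replicate 2, so the groups overlapped, and the log2 difference of 1.05 ± 1.06 did not pass (SE, edgeR adjusted p = 0.532). At E7.0 it had 6.78 and 38.2 CPM in ExE, against 1.45 and 14.7 CPM in A and 3.22 and 24.5 CPM in P. Replicate 2 was the higher library in each of these 3 groups. The E7.0 difference was 1.09 ± 1.17 (adjusted p = 0.550). At E6.5 Kdr had 1.35 and 1.27 CPM in ExE, and 2.63 and 0 CPM in Epi. Within ExE, E7.0 exceeded E6.5 by a log2 of 4.07 ± 1.65 (adjusted p = 0.350) and E7.5 exceeded E6.5 by 4.29 ± 1.65 (adjusted p = 0.297), neither of which passed.

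Etv2, the ETS factor that starts the blood and endothelial programme for a short time, was at a like level in E7.0 and E7.5 ExE. ExE had 2.61 and 1.41 CPM at E6.5, 23.4 and 25.0 CPM at E7.0, and 21.2 and 25.5 CPM at E7.5. The 4 later ExE libraries lay within a narrow range. E7.0 exceeded E6.5 in ExE by a log2 of 3.56 ± 0.83 (edgeR adjusted p = 0.127) and E7.5 exceeded E6.5 by 3.50 ± 0.82 (adjusted p = 0.0542), while E7.5 minus E7.0 was -0.05 ± 0.72 (adjusted p = 0.992). DESeq2 called both steps from E6.5 at about the same size (adjusted p = 0.00091 and 0.0006). At E7.0 both ExE libraries lay above A, with 6.62 and 7.51 CPM, and P, with 5.35 and 10.4 CPM (log2 1.70 ± 0.61, adjusted p = 0.0618). This E7.0 difference passed under the replicate block (adjusted p = 0.0481), total counts (0.0208), only the compared groups (0.0389), no filter (0.000754) and DESeq2 (0.0301). At E7.5 the groups overlapped, with 22.1 and 7.43 CPM in A, 7.89 and 35.3 CPM in AM, and 1.73 and 11.0 CPM in P. The E7.5 difference was 0.89 ± 0.56 (adjusted p = 0.285), and 1.5 without P replicate 2 (adjusted p = 0.0420).

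Cdh5, the cadherin of endothelial junctions, stayed near the limit of detection. It had 1.51 and 1.43 CPM in E7.5 ExE, from 19 and 15 counts, against 0 and 0.256 CPM in A, 0.0686 and 1.17 CPM in AM, and 0 in both libraries of P. The pooled ratio over A, AM and P was 5.60 (95% interval 3.16 to 10.2), and E7.5 ExE was at least 9.44-fold higher than P. The difference from the mean of the other pieces passed (edgeR adjusted p = 0.0344) but was lost when any of 6 single libraries was left out (adjusted p between 0.0697 and 0.186). E7.0 ExE held 0.164 and 1.62 CPM, the second of them in the library with the high Lmo2. The E6.5 libraries held between 0.141 and 0.228 CPM.

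Of the 6 genes that passed the filter without the E7.5 ExE libraries, 4 were called higher in E7.5 ExE and none lower, in a comparison that called 21.3% of the 14403 genes tested and 13.4% higher. In the same 4 both ExE libraries lay above the 6 others, as in 16.5% of the genes tested. Over the 10 genes, 8 showed that order, a count that includes the untested Hbb-y and Hba-x and, with their filter limit, Hbb-bh1 and Klf1. Against P alone the calls were 2, Runx1 and, with its filter limit, Hbb-bh1, where 8.55% of genes were called. The 8 tested, with Hbb-bh1 and Klf1 under the same filter limit, had both ExE libraries above both P libraries, as had 26.3% of genes. At E7.0 the calls were 2, Lmo2 and Runx1, where 18.2% of genes were called and 10% were higher. At E6.5 edgeR called 0 of the 8, with 0 at an unadjusted p under 0.05 and 0 by DESeq2, where 8.93% of genes were called.

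Between stages of ExE few genes of any kind passed. E7.5 against E6.5 called 3 members, Hbb-bh1, Tal1 and Lmo2, where 0.972% of genes were called, and 6 members had an unadjusted p under 0.05. Hbb-bh1 and Klf1, wherever counted in this paragraph, carry the filter limit given above and are no support. Each of the 3 calls depended on single libraries, and leaving out 1 of the E6.5 or E7.5 ExE libraries left between 0 and 1 call. E7.5 against E7.0 called 0 members by edgeR and 0 by DESeq2, with 3 at an unadjusted p under 0.05, where 0.0208% of genes (3) were called. E7.0 against E6.5 called 0 members by edgeR and 3 by DESeq2, with 4 at an unadjusted p under 0.05, where 0.111% of genes were called. P against A called 0 members at E7.0 and 0 at E7.5 by edgeR and by DESeq2, with 0 at an unadjusted p under 0.05, where 0.00694% and 0.236% of genes were called. The difference between E7.5 and E7.0 in the ExE contrast called 0 members by either tool, with 1 at an unadjusted p under 0.05, where 0.00694% of genes were called.

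**Figure D2:**
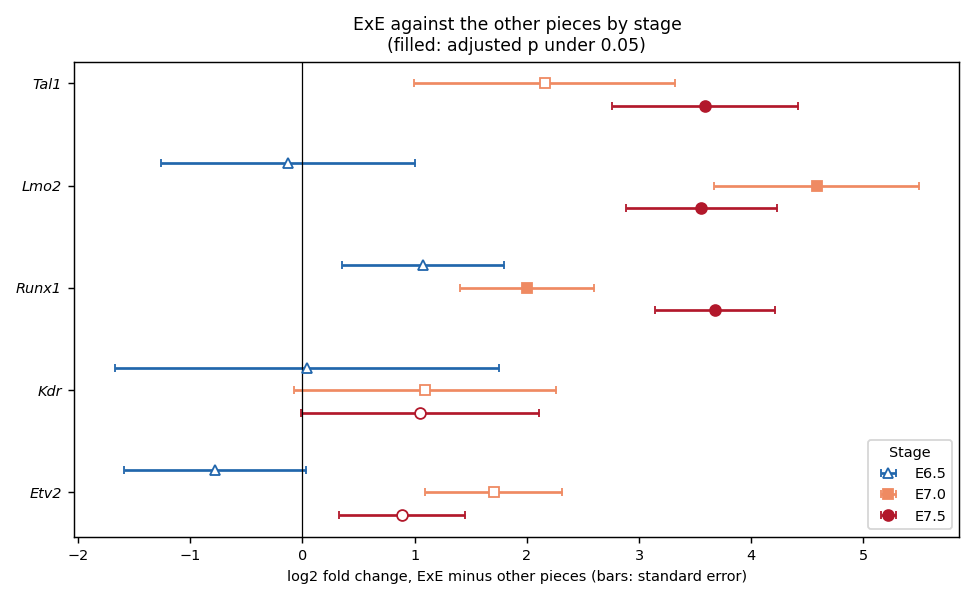
Fitted log2 fold change of ExE minus the mean of the other pieces of the same stage (x axis) for 5 genes (y axis), with bars for the standard error and filled symbols for an adjusted p under 0.05. Tal1, Lmo2 and Runx1 lie between 3.55 and 3.68 at E7.5, while Kdr and Etv2 lie at 1.05 and 0.89 and are open. Left out are Tal1 at E6.5 (0 counts in ExE) and Hbb-bh1, Klf1 and Cdh5 (3 counts or fewer in some groups). Lmo2 is shown although it also had only 3 counts in E7.0 A.

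Library E7.0 ExE replicate 2, also the shallowest with 5.15 M counts, differed from replicate 1 in vessel and early blood genes, in both directions. It held Lmo2 at 20.9 CPM, Kdr at 38.2 CPM and Cdh5 at 1.62 CPM, against 0.820, 6.78 and 0.164 CPM in replicate 1. Fli1, an ETS factor of blood and endothelium, had 53.3 CPM there and 0.109 CPM in replicate 1. Lyl1, the nearest relative of Tal1, had 3.24 and 0 CPM, and Emcn, the endothelial sialomucin endomucin, had 5.76 and 0 CPM (replicate 2 first; these and the genes named next from the same lists were picked after their values were seen). Tal1 was less uneven, with 2.88 CPM in replicate 2 and 0.765 CPM in replicate 1, Etv2 was level at 25.0 and 23.4 CPM, and Hbb-bh1 and Tek were at 0 in replicate 2. Of the 27 endothelial genes, 10 were higher in replicate 2 than in replicate 1 and 14 were lower. Among those lower were Pecam1 (1.8 CPM in replicate 2 and 8.80 CPM in replicate 1), S1pr1 (2.88 and 12.1 CPM), Ramp2 (5.22 and 17.9 CPM) and Egfl7 (31.7 and 48.5 CPM). The 15 other blood factors split into 8 higher and 7 lower. The summed level of 18 extra-embryonic mesoderm genes was 240 CPM in replicate 2 and 149 CPM in replicate 1. The part of tissue makeup in this difference was not tested.

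Some of the other blood transcription factors were also higher in ExE at E7.5. Of 15 listed, 14 were tested, 8 were called higher in ExE, in a comparison that called 13.4% of genes higher, and none lower, with a median log2 fold change of 2.51 against -0.02 over all genes tested. Gata1, the master factor of red cells, had 27.5 and 40.5 CPM in E7.5 ExE, against 0.918 to 11.6 CPM in the other pieces (log2 3.47 ± 0.34, edgeR adjusted p = 5.98e-06). Gata2, its progenitor-stage relative, had 17.4 and 20.4 CPM, against 0.101 to 1.93 CPM (log2 4.35 ± 0.75, adjusted p = 0.000852). Gfi1b, a repressor of red cell and platelet precursors, had 7.55 and 14.3 CPM, against 0 to 0.432 CPM (adjusted p = 0.000159). Outside E7.5 ExE, Gfi1b had at most 9 counts in a library. It thus also passed the filter through the E7.5 ExE libraries alone. Its call, included in the 8, is therefore no support, as for Hbb-bh1 and Klf1. Lyl1 had 18 counts in E7.0 ExE replicate 2 but at most 4 in any other library outside E7.5 ExE. Any call of Lyl1 has the same limit. Ikzf1, the lymphoid and erythroid factor Ikaros, had 7.55 and 4.10 CPM, against 0.342 to 1.72 CPM (log2 2.98 ± 0.60, adjusted p = 0.00244, and 0.0683 without E7.5 ExE replicate 1). Myb, needed in definitive but not primitive blood, had 4.93 and 0.955 CPM, against 0.274 to 9.01 CPM (log2 0.53 ± 0.68, adjusted p = 0.623), and the adaptor Ldb1 did not pass either (log2 -0.21 ± 0.52, adjusted p = 0.814).

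These factors differed in when ExE first carried them. Gata1 had 20.3 and 25.7 CPM in E6.5 ExE, against 1.48 and 2.77 CPM in Epi, and was already higher there (log2 3.42 ± 0.51, edgeR adjusted p = 0.000422). Gata2 had 6.21 and 8.04 CPM in E6.5 ExE, against 0 and 0.297 CPM in Epi (adjusted p = 0.0214). Gfi1b, by contrast, had 0.630 and 0.141 CPM in E6.5 ExE and 0.219 and 0.180 CPM in E7.0 ExE before its 7.55 and 14.3 CPM at E7.5. So at E6.5 the ExE piece held Gata1, Gata2 and Runx1 while Tal1 and Hbb-bh1 were at 0 counts. Summed trophoblast markers were 908 and 800 CPM in E6.5 ExE, against 47.2 and 54.0 CPM in Epi, and their part in the early Gata values was not tested.

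Among 28 endothelial genes, 22 were tested, 5 were higher in E7.5 ExE and none lower, with a median log2 fold change of 0.55. Of all genes tested, 13.4% were called higher and 21.3% in either direction. These shares are to be set beside each list count from here on. Sox7, an endothelial and endodermal factor, had 13.5 and 13.5 CPM in E7.5 ExE, against 0.274 to 3.44 CPM in the other pieces (log2 3.52 ± 0.63, edgeR adjusted p = 0.00107). It was higher still in E6.5 ExE, at 26.1 and 28.2 CPM. Tek, the angiopoietin receptor, had 9.46 and 6.97 CPM, against 0.173 to 2.55 CPM (log2 3.25 ± 0.63, adjusted p = 0.00199), and at most 0.564 CPM in the earlier ExE libraries. Fli1 had 9.86 and 7.83 CPM, against 0.259 to 1.16 CPM (log2 3.80 ± 1.10, adjusted p = 0.0279), a call lost by DESeq2 (0.0670) and when any 1 of the 8 E7.5 libraries was left out (adjusted p between 0.0652 and 0.144). S1pr1, a sphingolipid receptor, had 2.47 and 3.63 CPM, against 0 to 0.827 CPM (log2 3.39 ± 0.77, adjusted p = 0.00549, and 0.0890 without E7.5 ExE replicate 2). Pecam1, the adhesion molecule CD31, did not pass (log2 2.88 ± 1.19, adjusted p = 0.104), and neither did Flt4, the VEGF receptor 3 (log2 -1.02 ± 1.02, adjusted p = 0.517).

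**Figure D3:**
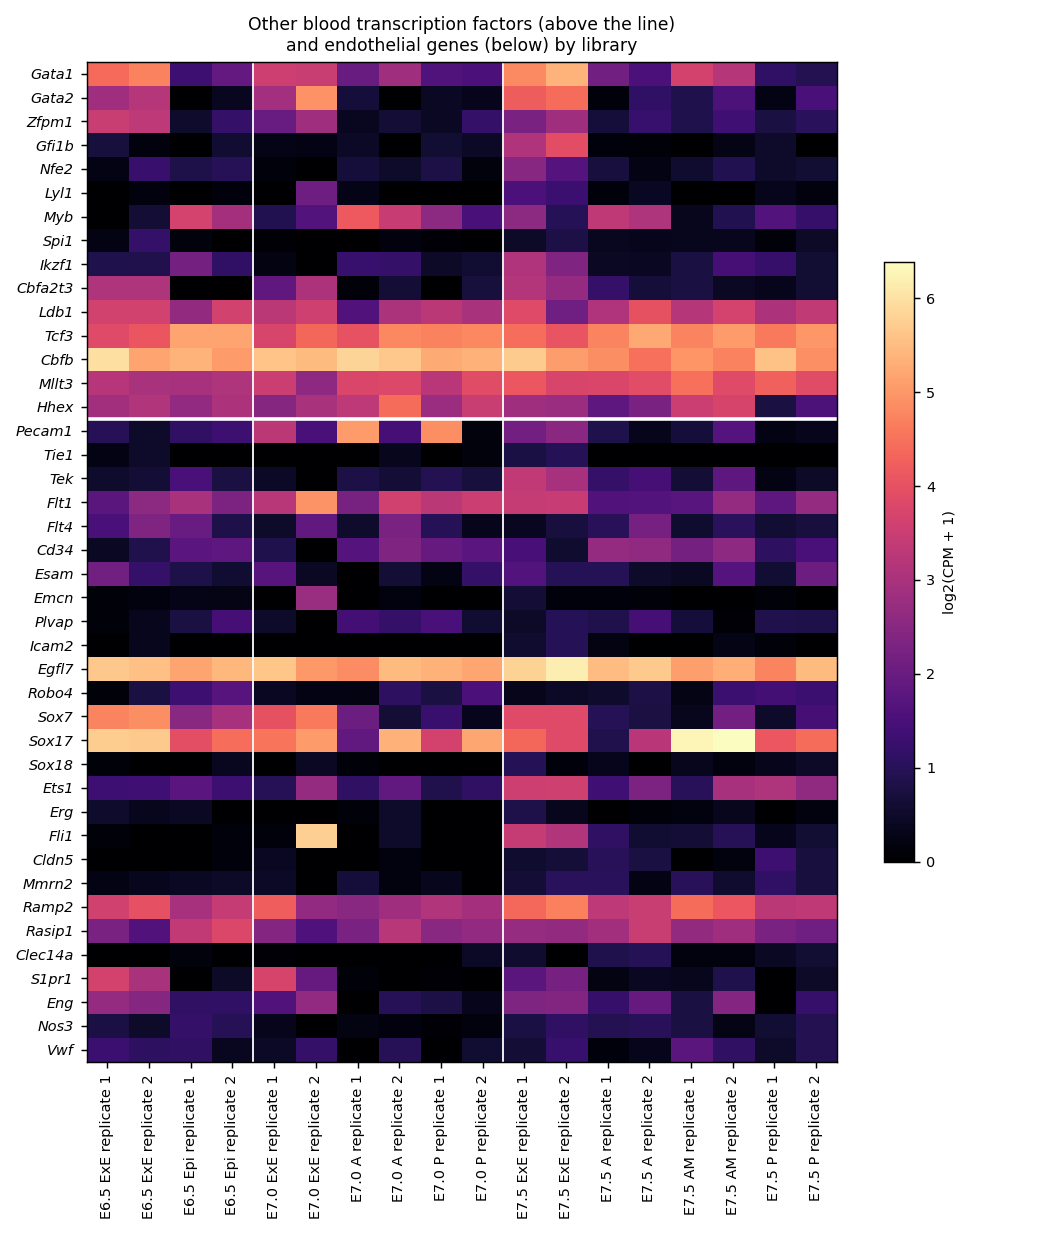
Level of 15 other blood transcription factors (above the white line) and 27 endothelial genes (below it) as log2(CPM + 1) in each of the 18 libraries (columns, stages divided by thin lines). Gata1, Gata2 and Sox7 are bright in ExE at all stages, Gfi1b and Tek are brightest in E7.5 ExE, and Fli1 is brightest in E7.0 ExE replicate 2 at 53.3 CPM.

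Kdr's ligands were measured beside it. Of 8 VEGF ligands and co-receptors, 2 were higher in E7.5 ExE and none lower, with a median of 0.39, where 13.4% of genes were called higher. Vegfa, the main ligand of Kdr, had 11.8 and 2.77 CPM in E7.5 ExE, against 1.06 to 4.46 CPM (log2 1.77 ± 0.49, edgeR adjusted p = 0.0162). That call rested on ExE replicate 1, without which the log2 difference was 0.26 (adjusted p = 0.831), and was lost without P replicate 1 too (adjusted p = 0.0549). Vegfa had 15.5 and 12.1 CPM in E6.5 ExE, against 1.26 and 1.68 CPM in Epi (log2 3.22 ± 0.70, adjusted p = 0.00811). Kdr itself had 1.35 and 1.27 CPM in the same E6.5 ExE libraries. Vegfb had 10.9 and 17.9 CPM in E7.5 ExE, against 4.84 to 8.88 CPM (log2 1.10 ± 0.38, adjusted p = 0.0469). This call was lost without any 1 of the 8 E7.5 libraries (adjusted p between 0.0583 and 0.523), under both other scalings (0.0628 and 0.211), with no filter (0.0625) and by DESeq2 (0.0504). Vegfc (log2 1.90 ± 1.26, adjusted p = 0.311) and Figf, also known as Vegfd (log2 -0.64 ± 0.88, adjusted p = 0.654), did not pass.

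Haem and red cell genes were not set apart by their number of calls. Of 26 listed, 21 were tested, 2 were higher in E7.5 ExE and none lower, with a median of 0.12. Of all genes tested, 13.4% were called higher. Cpox and Fech, which make the last intermediates and haem itself in mitochondria of all cells, were the called genes, at log2 1.96 ± 0.23 (edgeR adjusted p = 2.74e-05) and 1.0 ± 0.24 (adjusted p = 0.00697). Fech was 0.46 without E7.5 ExE replicate 2 (adjusted p = 0.406) and 0.68 under total counts (adjusted p = 0.103). Alas2, the erythroid form of the first enzyme of the pathway, had 3.42 and 1.34 CPM in E7.5 ExE, against 1.44 to 5.44 CPM in the other pieces (log2 -0.63 ± 0.66, adjusted p = 0.543), and Alas1, the housekeeping form, did not pass (log2 -0.38 ± 0.34, adjusted p = 0.468).

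The ExE pieces held several cell types, as their markers show. Of 18 genes of extra-embryonic mesoderm and allantois, 15 were tested, 7 were higher in E7.5 ExE and none lower, with a median of 1.96. Their summed level was 558 and 430 CPM in E7.5 ExE, against 81.7 to 314 CPM in the other E7.5 libraries, and 109 to 240 CPM in the earlier ExE libraries. Acta2, smooth muscle actin, had 30.9 and 12.8 CPM in E7.5 ExE, against 0.0506 to 5.65 CPM (log2 4.09 ± 0.68, edgeR adjusted p = 0.00061), and no more than 0.705 CPM in the earlier ExE libraries. Ahnak, a scaffold protein of spread cells, was higher by 3.0 ± 0.43 (adjusted p = 0.000167) and was already at 27.3 and 40.7 CPM in E6.5 ExE. Pitx1, a homeodomain factor, had 4.61 and 11.2 CPM, against 0.0864 to 1.28 CPM (adjusted p = 0.000675), and Cdx4, a caudal factor of posterior mesoderm and early blood, was called too, with 12.6 and 3.63 CPM in ExE and 8.46 and 3.54 CPM in P. Hand1 (log2 1.26 ± 0.87, adjusted p = 0.335) and Foxf1 (log2 1.46 ± 1.37, adjusted p = 0.500) did not pass.

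Visceral endoderm, which coats the yolk sac and is known to express Sox7, had the highest summed level of the lists of other cell types. Its 18 markers summed to 17260 and 22430 CPM in E7.5 ExE, against 51.8 to 9455 CPM in the other E7.5 libraries, and 9 were higher and none lower (median 2.74). Cited1 had 875 and 1480 CPM in ExE (log2 3.86 ± 0.51, edgeR adjusted p = 0.000158), whereas Apoa1 (log2 2.78 ± 1.31, adjusted p = 0.164) and Apob (log2 1.55 ± 0.88, adjusted p = 0.246) did not pass. Trophoblast markers (12 of 15 tested, 8 higher, none lower, median 3.24) summed to 417 and 563 CPM in E7.5 ExE, against 82.4 to 142 CPM. Elf5, a trophoblast factor, had 19.3 and 16.5 CPM in E7.5 ExE, against 0 in 5 of the other libraries and 0.173 CPM in P replicate 1, while Cdx2 did not pass (log2 0.07 ± 0.71, adjusted p = 0.961). Epiblast markers had 2 higher, Pou3f1 and Utf1, and 4 lower of 10, with Nodal, Otx2 and Fgf5 among the lower. Without single libraries the log2 difference ran from 2.05 to 3.28 for Pou3f1 and from 1.11 to 2.10 for Utf1. Pou3f1, Utf1 and Fgf5 each had their smallest difference without E7.5 ExE replicate 2, where their calls were not kept. Dnmt3b and Sox2 did not pass in the main fit. Dnmt3b was called lower by DESeq2 (log2 -1.13, adjusted p = 0.00884). It was also called lower in edgeR under total counts (adjusted p = 0.00738), with no filter (0.0127) and with the replicate block (0.0264), though not in every setting. Nodal, an epiblast signal, had 0 counts in both E7.5 ExE libraries, but the list summed to 381 and 449 CPM there, against 313 to 2838 CPM. The part of these tissues in the members' differences was not tested.

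Markers of maternal tissue overlapped between ExE and the other pieces but were not level. Leukocyte markers summed to 5.25 and 8.97 CPM in E7.5 ExE, against 2.06 to 4.36 CPM in A and AM and 2.25 and 6.17 CPM in P, with 0 of 3 tested genes called by edgeR. Ptprc, the pan-leukocyte CD45, had 2.47 and 0.0955 CPM in ExE (log2 2.32 ± 1.05, adjusted p = 0.126). Decidual markers summed to 110.5 and 90.9 CPM in ExE, against 25.4 and 44.1 CPM in A, 36.2 and 75.6 CPM in AM, and 75.0 and 112.6 CPM in P. The ExE values were thus above A and AM and overlapped P. Of 9 tested, 1 was higher, Cryab (log2 3.65 ± 0.82, adjusted p = 0.005, and 0.112 without E7.5 ExE replicate 2). The part of maternal cells in the members' differences was not tested. The adult globins of maternal red cells were at 0 counts, within the limit on near-identical copies given above.

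**Figure D4:**
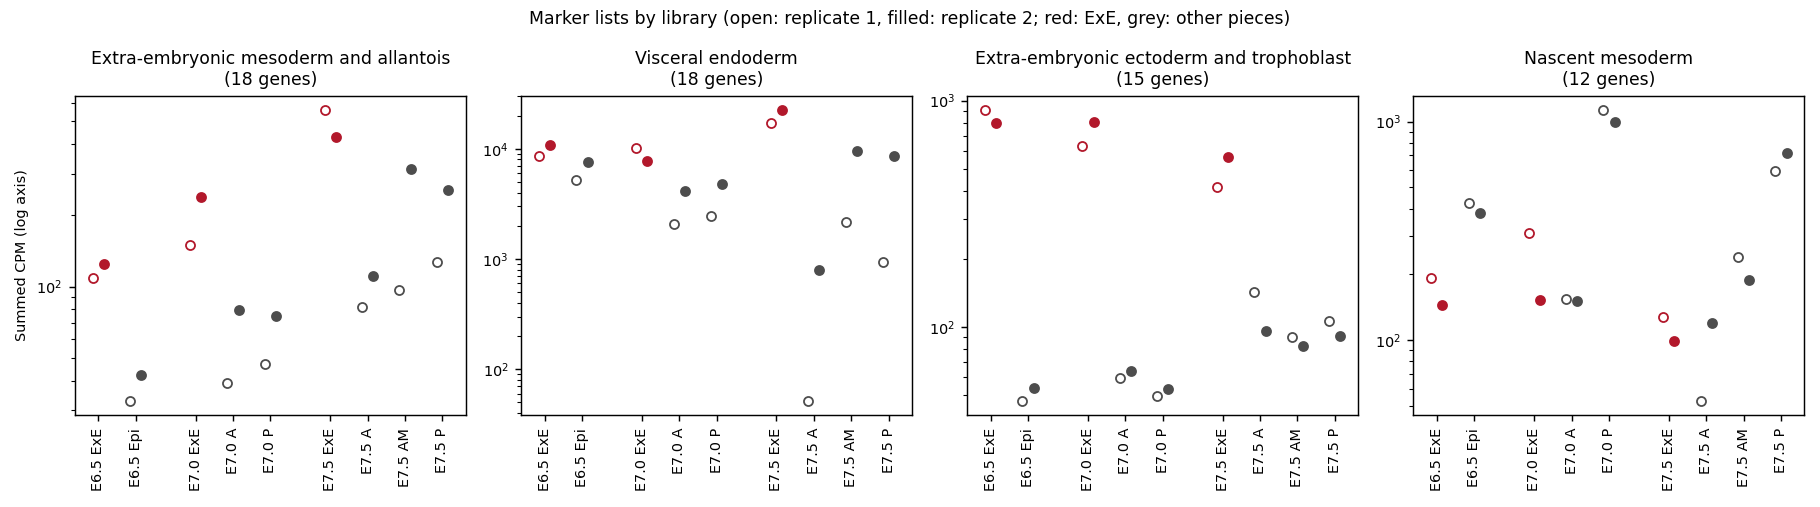
Summed CPM of 4 marker lists (y axis, log scale) in each library, by group in stage order, with open points for replicate 1 and filled points for replicate 2; ExE is red and the other pieces are grey. Extra-embryonic mesoderm is highest in E7.5 ExE at 558 and 430 CPM, and at E7.5 AM and P replicate 2 lies above replicate 1 in it and in visceral endoderm.

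Outside ExE, the E7.5 pieces AM and P differed between their replicates in the same genes. Kdr, Etv2 and Tal1 were higher in replicate 2 of AM and of P, with Kdr at 34.2 and 7.14 CPM in AM (replicate 2 first) and at 15.2 and 3.54 CPM in P. Summed extra-embryonic mesoderm markers were 314 CPM in AM replicate 2 and 96.5 CPM in replicate 1, and 256 and 127 CPM in P in the same order. Visceral endoderm markers were 9455 and 2159 CPM in AM and 8667 and 945 CPM in P. Lmo2 did not share this in P, where replicate 1 had 9.59 CPM and replicate 2 had 3.94 CPM. The part of these tissues in the spread between replicates was not tested.

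Nascent mesoderm is the source tissue of the progenitors. Its 12 genes had 1 higher, Eomes (log2 1.91 ± 0.44, edgeR adjusted p = 0.00648), and 2 lower, Tbx6 (log2 -4.53 ± 1.08, adjusted p = 0.00722) and Lhx1 (log2 -1.73 ± 0.57, adjusted p = 0.0384), in E7.5 ExE, with a median of -1.45. Eomes (adjusted p = 0.138) and Tbx6 (0.125) lost their calls without ExE replicate 2, and Lhx1 did without any 1 of 4 libraries (0.0601 to 0.207). Mixl1, a streak factor, had 94.8 and 20.0 CPM in E7.0 ExE and 13.1 and 1.53 CPM in E7.5 ExE, against 61.9 and 12.8 CPM in E7.0 A and 713 and 404 CPM in E7.0 P. Nascent mesoderm markers summed to 597 and 721 CPM in E7.5 P, the piece with the second highest mean Lmo2 level at that stage.

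Across the 18 libraries the members varied together to different degrees, given as a description since they share libraries and stages. Correlations of log2 CPM (prior count 2) were 0.781 for Hbb-bh1 and Klf1, 0.765 for Kdr and Etv2, and 0.746 for Tal1 and Lmo2. Hbb-bh1 and Klf1 carry the filter limit given above, here and in the mean profile below, so their correlation is no support. Tal1 was as close to Etv2 (0.759) and Kdr (0.744) as to Lmo2. Lmo2 and Kdr had 0.516, and the lowest pair was Runx1 and Kdr at 0.0284. With the mean profile of the 8 tested members, Tal1 had r = 0.904 and Runx1 r = 0.550. The 10 other genes most like that profile, among 10759 with a group mean of at least 5 CPM, were Lama4 (r = 0.878), Anxa6, Skap1, Sct, Spin2c, Tspan32, Ppic, 1810058I24Rik, Fli1 and Cgrrf1 (r = 0.790). Lama4, a laminin chain of vessel basement membranes, averaged 11.2 ± 3.35 CPM in E7.5 ExE (SD, n = 2), against at most 3.34 CPM in any other group. Tspan32, a tetraspanin of blood cells, averaged 6.06 ± 1.82 CPM, against at most 0.344 CPM. Both reached the 5 CPM group mean only in E7.5 ExE. Their differences there thus follow from how the genes were picked and are no support.

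Positions on GRCm38.p6, the assembly that mm10 names, came from the RefSeq table. Hbb-bh1 (chromosome 7, 103841638 to 103843162) and Hbb-y (103851754 to 103853207) lie side by side in the beta-globin cluster, and Hba-x lies in the alpha-globin cluster (chromosome 11, 32276600 to 32278116). Tal1 is on chromosome 4, Lmo2 on 2, Runx1 on 16, Kdr on 5, Etv2 on 7, and Klf1 and Cdh5 both on 8. Tal1, Lmo2, Runx1, Kdr and Cdh5 each overlap an annotated non-coding gene. Whether counting used strand is not given, and reads of these partners may be included.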

How the data were processed

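Per the labels' protocols, embryo RNA was lysed out with guanidine thiocyanate, precipitated with a carrier, and turned into 18 libraries by the Nextera XT kit. Whole-number counts per gene were used as the authors deposited them. For upstream steps, the submitters' processing notes list TopHat2 2.0.9, CASAVA 1.8 and BWA, with build mm10. How reads were counted, and with which annotation and strand setting, is not given. Columns were matched to samples by name, and 6 columns that matched none were not used. All other samples of the series were not analysed here.

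All 9 groups entered 1 robust fit with TMM scaling, tested by quasi-likelihood in edgeR 4.0.16 under R 4.3.3, on the 14403 genes passing filterByExpr (minimum count 10, minimum total 15), with Benjamini-Hochberg adjusted p under 0.05 called, in 10 contrasts. A standard error is the log2 fold change over the square root of F. Groups without counts were given a floor of 3 counts per group, and pooled ratios an exact 95% interval that covers counting error only. Replicate counts differed beyond sampling noise in every group (chi-square per degree of freedom 40.4 to 135). The fit was also run on simulated counts drawn with its own dispersions. Apart from planted changes in ExE, each gene had the same level in every group there. That setting lacks the other group differences of these data, so no conclusion is drawn from it. Genes named beside the 10 were drawn from each list as the 4 called genes with the smallest p, 2 at most from the rarer direction, and 2 at most among those missing the threshold. Not all of these are named, such as Fgb, Ihh and Rbp4 of visceral endoderm and Esrrb, Wnt7b and Ddah1 of trophoblast, all called higher in E7.5 ExE. Genes and lists were chosen with earlier results of these data known. Gpr116 and Ahsp, 2 listed genes, were not matched in the table. Alternatives were DESeq2 1.42.0, other scalings and filters, a replicate block, fits of the compared groups only and leaving out each library.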

Additional observations from a re-analysis of the deposited data

How the results depend on the processing

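Of 468 fold changes of the blood and vessel genes under alternatives, 398 kept their direction and their side of the threshold, 37 lost it, 31 gained it and 2 reversed. Both reversals came without E7.0 ExE replicate 2, in Kdr at E7.0 (log2 -0.63, range without single libraries up to 2.31) and in Lmo2 in E7.0 against E6.5 ExE (log2 -0.078, up to 5.19). Against P alone at E7.5 neither Runx1 nor Lmo2 passed in every setting, and Lmo2 did not pass in the main fit (edgeR adjusted p = 0.140). In E7.5 ExE against the mean of A, AM and P, both passed in every setting run. Hbb-bh1 lost its E7.5 call by DESeq2 (adjusted p = 0.127), and Cdh5 by DESeq2 (adjusted p = 0.0584) and under total counts (adjusted p = 0.0534), where Lmo2 also lost E7.5 against E6.5 ExE (adjusted p = 0.0631). Runx1 lost E7.0 with only the compared groups in the fit (adjusted p = 0.0855). Counts of members called moved as follows. For E7.5 ExE against A, AM and P, 6 became 5 under total counts. It became 4 by DESeq2 and with a filter of 20 counts in 2 libraries. These counts include Hbb-bh1 and Klf1 where called, with their filter limit. For E7.5 ExE against P, 2 became 6 with no filter, 4 with the replicate block and 6 with only the compared groups. For E7.0 ExE against A and P, 2 became 4 with no filter, and 3 under total counts, with the replicate block and by DESeq2. For E6.5 ExE against Epi, 0 became 1 with no filter and 1 with only the compared groups. For E7.5 against E7.0 ExE, 0 became 2 with no filter and 1 with the replicate block. For E7.0 against E6.5 ExE, 0 became 4 with no filter and 3 by DESeq2. For E7.5 against E6.5 ExE, 3 became 5 with no filter, 4 with only the compared groups and 2 under total counts. Leaving out single libraries also moved these counts, except at E6.5, for P against A and for the difference between stages. The number of all genes called moved as well, but not always in step. For E7.5 ExE against P it was 1232 in the main fit, 1863 with no filter and 1181 with only the compared groups. The members called went from 2 to 6 in both of these settings. A library left without its partner is assumed to vary like the other groups. The cause was not tested beyond these settings.

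The labels do not say that replicate numbers pair libraries; deviations of same-numbered libraries within a stage correlated at 0.0628 to 0.563 over 10 pairs of groups, and the block changed the member counts of the other comparisons by no more than 1. Under total counts the E7.5 comparison called 2199 genes, 44.5% of them higher, against 3073 and 62.9% with TMM, and the median of all genes moved to -0.33; at E7.0 it called 2216 with 69.7% higher, against 2615 and 55.1%; at E6.5 it called 1071 with 63.2% higher, against 1286 and 41.3%. Over listed genes, 741 of 819 values kept direction and side and 14 reversed. Cdx2 reversed to -0.11 under total counts, and to -1.0, -0.25, -0.21 and -0.12 without replicate 1 of ExE, A, AM and P. Without E7.5 ExE replicate 1, Myb was -1.21, Vegfc -2.06 and Ptprc -1.41. Without E7.5 ExE replicate 2, Ldb1 was 0.44, Mixl1 0.71 and Lyz2 -3.66. Mixl1 was 0.04 without A replicate 2 and 0.40 without AM replicate 2, and Prl8a2 was 0.59 without AM replicate 1. Without single libraries, these genes ranged as far on the other side as 0.88 for Cdx2, 1.24 for Myb, 3.38 for Vegfc, 3.22 for Ptprc, -1.66 for Ldb1, -2.47 for Mixl1, 3.81 for Lyz2 and -5.29 for Prl8a2. With 5.15 to 17.1 M counts, genes of a few counts such as Hbb-y, Hba-x, Cdh5 and Klf1 are at the limit of what these libraries resolve.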
